A study of Mus musculus with 17 samples.

Results

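The genes expressed in DN3a thymocytes of older mice were compared between animals carrying an Lmo2 transgene and wild-type animals, with 3 libraries in each group out of 17 in the series. DN3a cells are CD4 and CD8 double-negative thymocytes at the stage where the T cell receptor beta gene is being rearranged. All mice were C57BL/6, and every mouse of the older groups was a separate female. The Lmo2-transgenic mice were 6, 10 and 10 weeks old (replicates 1 to 3) and the wild-type mice 10, 8 and 8 weeks. The promoter that drives the transgene is not given in the sources used here, and the labels of the groups differ only in genotype and these ages. A library letter in the labels is a for replicate 1 and b for replicates 2 and 3 of both groups. Of 18760 features with a read in any library, 13534 passed the filter on low counts and were tested.

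LMO2 is a nuclear adaptor protein without DNA binding of its own. It joins basic helix-loop-helix factors such as TAL1 or LYL1, their E protein partners, GATA factors and LDB1 into complexes that bind E-box and GATA motifs in blood stem and progenitor cells. In normal thymocytes Lmo2 is shut down before commitment to the T lineage, and its ectopic expression there is a known cause of T cell leukaemia in mice and in patients. DN3 cells that have productively rearranged the beta chain pair it with the pre-TCR alpha chain, and signals from this pre-TCR together with Notch drive proliferation and passage to the CD4 CD8 double-positive stage.

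The 6 libraries held between 8365727 and 10799084 assigned reads. One read was worth 0.0895 to 0.1227 CPM (reads scaled to a common library size), the unit of every level below. Levels in CPM are not divided by gene length and are compared only within a gene. Within a group the log2 CPM values correlated between libraries at 0.958 to 0.973 (wild type) and 0.973 to 0.98 (transgenic), against 0.874 to 0.919 between the groups. A single unnamed feature of 5868 bases took 2.34 to 9.48% of the reads in wild-type libraries and 0.575 to 4.28% in transgenic ones, and mitochondrial genes took 3.64 to 7.18% and 2.91 to 3.65%. All fold changes are transgenic over wild type on the log2 scale. Each has a Benjamini-Hochberg adjusted p of edgeR's quasi-likelihood test over all 13534 genes. The value after ± on a fold change, or on a difference between ages, is an approximate error and not one that edgeR gives. It was worked back from the fold change and the result of that test. Where a group held few or no reads it depends on the prior count, a small count added before logs are taken. A gene is called at an adjusted p under 0.05. Bulk libraries cannot tell fewer cells of a type from less RNA of that type per cell, and this holds for every result below.

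Lmo2 itself (gene 16909, chromosome 2, 103957903 to 103981878 in GRCm38) stood at 27.8, 19.5 and 27.3 CPM in the transgenic libraries. It had 0, 0.848 and 0.11 CPM in the wild-type ones, so the groups did not overlap and the genotype labels held in all 6 libraries. The difference was 6.16 ± 0.54 (adjusted p = 1.77e-07).

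Transgenic and wild-type cells differed in 4145 genes, 30.6% of those tested, 2022 of them higher (14.9%) and 2123 lower (15.7%) in transgenic cells. In 3994 of the called genes, 96.4%, the 3 transgenic libraries lay wholly on one side of the 3 wild-type libraries. Such separation was found in 45.6% of all tested genes. The decreases included more of the very large changes. Among called genes 1480 fell and 1008 rose by at least 2-fold, 515 fell and 209 rose by at least 8-fold, and 218 fell and 83 rose by at least 32-fold. The median log2 fold change was -1.47 among the genes called lower and 1.00 among those called higher, while over all tested genes it was -0.04. Direction went with the mean level of the gene. In the lowest of 3 equal classes of mean level 438 genes rose and 1002 fell, and in the highest 926 rose and 464 fell.

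Some genes went from silence to clear expression. With silence set at under 0.5 CPM in every library of one group and expression at 5 CPM or more in every library of the other, 18 genes were expressed in transgenic and silent in wild-type cells and 40 the reverse. This split was made after the values had been seen. Tspan32, which encodes a tetraspanin membrane protein of blood cells, had 20.5, 19.7 and 27.5 CPM in transgenic libraries and no read in any wild-type library. It was at least 199-fold higher, with 3 reads over the group taken as the floor. Acnat1 and Il5ra, the latter encoding the interleukin 5 receptor alpha chain, were also without a wild-type read and were at least 92.9-fold and 50.8-fold higher. Tbx4, a T-box factor of limb development, stood at 93.3, 90.9 and 44.9 against 0.368, 0.212 and 0.11 CPM (8.32 ± 0.88, adjusted p = 1.53e-06). Other very large increases were in Slc7a8, an amino acid transporter (7.99 ± 0.61), Atp8a2, a phospholipid flippase (7.60 ± 0.42), Ryr2, an intracellular calcium channel (496 reads against 1), and Tenm4, a teneurin of the cell surface (7.42 ± 0.65).

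The largest decreases included signalling genes. Arhgap32, a GTPase-activating protein, had 35.3, 38.8 and 47.9 CPM in wild-type libraries and 3 reads in all 3 transgenic libraries together, a ratio of 419 with an exact 95% counting interval of 143 to 2034. Gab1, a docking protein of growth factor receptors, had 292 wild-type reads against 1, a ratio of 337 (interval 60.1 to 13370). Grk3, a kinase of G protein-coupled receptors, fell from 36.4, 46.9 and 31.0 to 0.197, 0.269 and 0 CPM (-7.77 ± 0.44, adjusted p = 1.1e-09). Fam163b fell from 213, 108 and 136 to 0.986, 0.179 and 0.423 CPM. In each of these genes every transgenic library was far below every wild-type library.

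**Figure D1:**
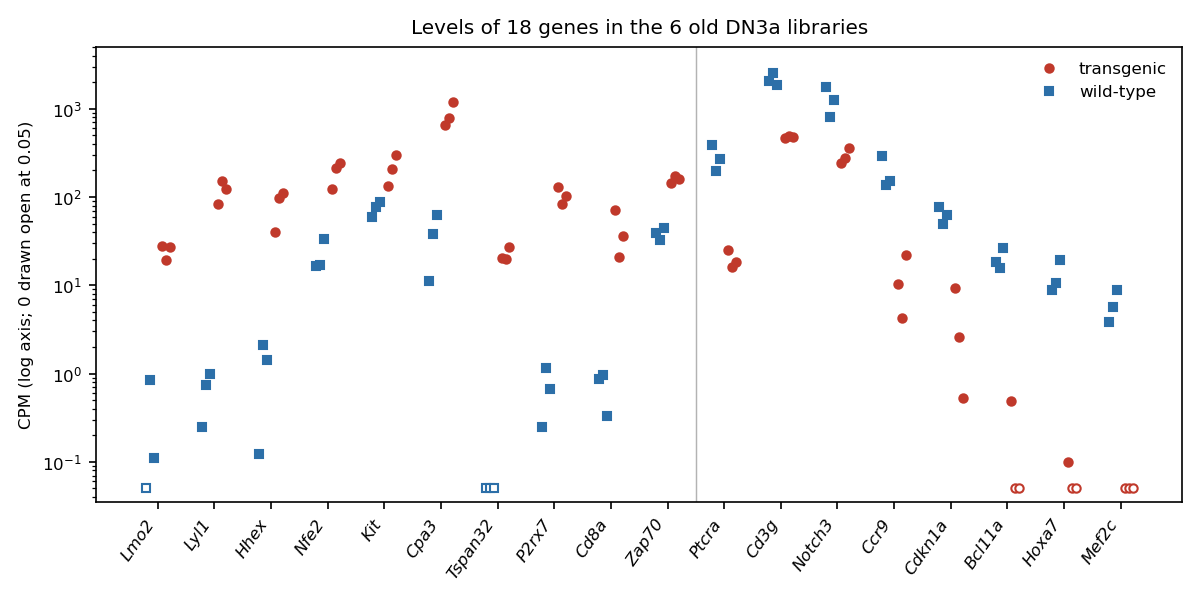
Levels of selected genes in each of the 3 wild-type and 3 transgenic old DN3a libraries, in CPM on a log axis, with 1 point per library (circles transgenic, squares wild type, open symbols for 0). The 10 genes left of the grey line lie higher in every transgenic library and the 8 to its right lie lower.

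Counts in gene lists, here and below, are to be read beside all tested genes, of which 14.9% rose and 15.7% fell. Among 20 tested partners and relatives of LMO2, 4 rose and 4 fell, with a median log2 fold change of 0.05. The strongest rise was in Lyl1, the basic helix-loop-helix partner of LMO2, at 84.3, 152 and 122 against 0.245, 0.742 and 0.993 CPM (7.44 ± 0.66, adjusted p = 2.23e-07). Tal1, which can take the same place in the complex, stayed under 0.7 CPM in all 6 libraries (-0.04 ± 0.97, adjusted p = 0.982). The E protein gene Tcf4 fell from 98.1, 135 and 97.9 to 39.6, 46.3 and 42.4 CPM (-1.37 ± 0.17, adjusted p = 8.15e-06). The other E protein genes, named here outside the rule for named genes and after their values were seen, Tcf3 (0.09 ± 0.17, adjusted p = 0.737) and Tcf12 (0.36 ± 0.17, adjusted p = 0.12), did not pass the test. Ldb1, the LIM-domain binding protein of the complex, had 260, 299 and 216 against 511, 367 and 392.5 CPM (-0.71 ± 0.22, adjusted p = 0.0206). Without wild-type replicate 1 only 1 partner gene remained called lower, and Ldb1, Lmo1 and Lmo4 each lost their call without at least 1 library.

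Regulators of stem cells and early progenitors moved in both directions. Of 22 tested, 9 rose and 7 fell, with a median of 0.18. Hhex, a homeobox factor of progenitor cells, rose from 0.123, 2.12 and 1.44 to 40.2, 97.0 and 110 CPM (6.01 ± 0.61, adjusted p = 1.1e-06). Nfe2, a leucine zipper factor of megakaryocytes, stood at 124, 215 and 241 against 16.6, 17.2 and 33.1 CPM (3.12 ± 0.31). Kit, the stem cell factor receptor that marks the stages before DN3, stood at 133, 208 and 299 against 59.6, 77.0 and 88.7 CPM (1.5 ± 0.24, adjusted p = 0.000149). Other members were taken after their values had been seen: Igf2bp3, an RNA-binding protein of fetal progenitors (3.64 ± 0.18, adjusted p = 7.94e-10), Prdm16, a regulator of stem cells (3.00 ± 0.43), and Zfpm1, a GATA cofactor (1.68 ± 0.21).

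Other progenitor regulators were almost lost. Mef2c, a factor of lymphoid and myeloid progenitors, had 3.80, 5.62 and 8.83 CPM in wild-type libraries and no read in any transgenic one, at least 63.1-fold lower. Bcl11a, a zinc finger factor of early lymphoid cells, fell from 18.3, 15.8 and 26.5 to 0.493, 0 and 0 CPM (-6.84 ± 0.64, adjusted p = 3.68e-07). Spi1, encoding PU.1, had 61 reads against 3, a ratio of 23.5 (interval 7.67 to 117). Homeobox factors as a list followed this second pattern, with 12 of 20 lower, 3 higher and a median of -0.92. Hoxa5 had 4.66, 6.67 and 8.83 CPM in wild-type libraries and no transgenic read, at least 69.7-fold lower, and Hoxa7 had 345 reads against 1. Hoxa3, Hoxa4 and Hoxa6 were likewise without a transgenic read and at least 17.3-, 16.2- and 16.9-fold lower. The transgenic libraries thus held rises in Lyl1, Hhex and Kit beside losses across the HoxA cluster. Without transgenic replicate 1 the homeobox count was 8 lower.

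Genes of the pre-TCR and of receptor rearrangement were among those that fell. Ptcra, the pre-TCR alpha chain (chromosome 17, 46755663 to 46763712), fell from 384, 194 and 270 CPM to 25.4, 16.2 and 18.4 CPM (-3.82 ± 0.34, adjusted p = 1.97e-07), with every transgenic library far below every wild-type library. Rag2, one of the recombinase genes, fell from 136, 90.5 and 113 to 64.7, 26.0 and 38.7 CPM (-1.39 ± 0.26, adjusted p = 0.000605). Cd3g, a signalling chain of the receptor complex, had 461, 495 and 480 against 2046, 2562 and 1879 CPM (-2.17 ± 0.29, adjusted p = 2.41e-05). Over the 26 tested genes of T lineage commitment and pre-TCR signalling 11 were lower and 6 higher, with a median of -0.14. The commitment factor Bcl11b, likewise chosen after its values were seen, was among the lower ones (538, 442 and 561 against 975, 1191 and 1047 CPM, -1.06 ± 0.17), and Il2ra, which encodes CD25 and marks DN3 cells, fell by 0.91 ± 0.19.

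The members that rose included signalling genes of T cells. Zap70, a kinase downstream of the receptor, stood at 144, 175 and 158 against 39.4, 32.4 and 44.2 CPM (2.04 ± 0.19, adjusted p = 3.77e-07). Cd5, an inhibitory surface receptor, stood at 53.2, 73.0 and 58.9 against 14, 9.01 and 10.5 CPM (2.47 ± 0.20, adjusted p = 9.69e-08). Tcf7, which encodes TCF1, a factor of T cell identity, stood at 3092, 3011 and 3236 against 1234, 1656 and 1875 CPM (0.97 ± 0.21, adjusted p = 0.00183). In these genes all transgenic libraries lay above all wild-type ones, so commitment genes did not move as one group.

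Genes known to be regulated by E proteins fell more often than they rose: 10 of 20 were lower and 2 higher, with a median of -0.93. Besides Ptcra and Rag2, the lower members included Notch3 at 242, 273 and 357 against 1784, 805 and 1241 CPM (-2.13 ± 0.32, adjusted p = 6.96e-05). Ccr9, a chemokine receptor that holds progenitors in the thymus, had 10.2, 4.21 and 22 against 293, 138 and 150 CPM (-4.0 ± 0.46, adjusted p = 3.88e-06). Cdkn1a, the cell cycle inhibitor p21, had 9.36, 2.60 and 0.528 against 76.7, 48.8 and 62.1 CPM (-3.90 ± 0.50). Cd8a was the largest increase in this list, at 71.2, 20.9 and 36.4 against 0.859, 0.954 and 0.331 CPM (5.88 ± 0.71, adjusted p = 6.85e-06). Rag1, also called lower (-0.95 ± 0.26), lost its call without transgenic replicate 2.

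The bases before the starts of 5 genes named here are shown because LMO2 complexes are known from E-box and GATA motifs. They run 5′ to 3′ on the gene's strand, end before the gene's annotated span and come from RefSeq on GRCm38.p6. Capitals mark E-boxes (CANNTG, which reads the same on both strands) and the GATA motif AGATAA or its reverse TTATCT. The stretches are chr17:46763713-46763962 (minus strand, Ptcra), chr17:32166897-32167140 (minus, Notch3), chr8:84701207-84701422 (plus, Lyl1), chr19:37434591-37434840 (plus, Hhex) and chr3:20242210-20242431 (minus, Cpa3, a mast cell protease gene that is also expressed in progenitors).
Ptcra: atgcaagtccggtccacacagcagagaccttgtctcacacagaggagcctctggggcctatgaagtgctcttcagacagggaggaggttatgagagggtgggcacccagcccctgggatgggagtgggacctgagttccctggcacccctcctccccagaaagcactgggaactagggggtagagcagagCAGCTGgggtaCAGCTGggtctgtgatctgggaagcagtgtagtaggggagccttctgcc
Notch3: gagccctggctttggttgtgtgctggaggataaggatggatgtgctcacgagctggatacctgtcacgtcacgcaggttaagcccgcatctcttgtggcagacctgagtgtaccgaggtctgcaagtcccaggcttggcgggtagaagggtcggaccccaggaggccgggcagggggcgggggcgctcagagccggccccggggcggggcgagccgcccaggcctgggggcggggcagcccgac
Lyl1: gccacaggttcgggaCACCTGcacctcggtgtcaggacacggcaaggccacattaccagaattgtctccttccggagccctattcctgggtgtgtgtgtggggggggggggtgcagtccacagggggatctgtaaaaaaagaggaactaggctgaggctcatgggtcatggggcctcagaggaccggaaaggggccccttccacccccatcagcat
Hhex: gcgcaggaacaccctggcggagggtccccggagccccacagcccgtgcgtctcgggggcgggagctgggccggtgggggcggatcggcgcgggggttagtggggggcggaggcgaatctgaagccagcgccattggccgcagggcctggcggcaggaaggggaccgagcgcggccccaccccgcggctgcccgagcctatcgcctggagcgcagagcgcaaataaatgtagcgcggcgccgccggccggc
Cpa3: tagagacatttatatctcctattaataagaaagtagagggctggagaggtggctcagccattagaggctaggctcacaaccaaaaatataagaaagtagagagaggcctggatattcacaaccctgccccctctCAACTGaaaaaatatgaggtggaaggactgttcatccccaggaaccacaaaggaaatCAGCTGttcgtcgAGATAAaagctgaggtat
The Ptcra stretch holds 2 E-boxes of the form CAGCTG, and the Lyl1 stretch holds 1 of the form CACCTG, the reverse of CAGGTG. The Cpa3 stretch holds 2 E-boxes, 1 of them CAGCTG, and 1 AGATAA motif. Neither the Notch3 nor the Hhex stretch holds one of these motifs. A 250-base window was available for 10166 tested genes, 75.1% of the 13534, and some genes had several. In any window, 61.8% of these genes held CANNTG, 14.1% CAGCTG, 18.3% CAGGTG or its reverse and 7.48% AGATAA or its reverse. Over the 12876 single windows the shares were 57.9%, 12%, 15.7% and 6.17%. The Notch3, Lyl1 and Cpa3 stretches are shorter than a window, at 244, 216 and 222 bases. CANNTG includes the CAGCTG and CAGGTG forms. Because under 80% of tested genes have a window, shares were not compared between genes that rose and genes that fell.

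Other Notch pathway genes moved in both directions. Of 15 tested, 5 were lower and 2 higher (1 without wild-type replicate 2), with a median of -0.39. Among all tested genes 15.7% were lower and 14.9% higher. Notch1 itself had 1486, 1595 and 1668 against 2789, 1452 and 2380 CPM, so the groups overlapped (-0.48 ± 0.32, adjusted p = 0.27). Dtx4, a Deltex family gene, fell from 29.7, 23.7 and 26.6 to 2.27, 2.87 and 1.48 CPM (-3.58 ± 0.33, adjusted p = 3.68e-07). Hes1, a direct Notch target, fell by 0.92 ± 0.21 (adjusted p = 0.00282), and Notch2 fell by 1.68 ± 0.26.

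Genes of later thymocyte stages rose in part. Of 21 genes of beta selection and the double-positive stage 7 rose and 5 fell, with a median of 0.45, and of 19 genes of mature alpha beta T cells 5 rose and 1 fell (none without wild-type replicate 3). Cd2, an adhesion receptor, stood at 65.9, 42.5 and 51.9 against 0.491, 0.424 and 0.331 CPM (6.97 ± 0.57, adjusted p = 8.4e-08). Cd8b1 followed Cd8a (4.95 ± 0.81), and the alpha chain constant gene Trac stood at 11.3, 32.9 and 24 against 1.35, 0.424 and 1.10 CPM (4.57 ± 0.56). Cd4 went the other way, at 0.69, 0.627 and 0.528 against 4.91, 4.98 and 2.98 CPM (-2.77 ± 0.65, adjusted p = 0.00327). Ctla4, an inhibitory receptor, fell from 126, 290 and 113 to 30.4, 6.36 and 5.07 CPM (-3.66 ± 0.52). Itgb7, an integrin chain of gut-homing T cells, rose from 4.17, 1.59 and 6.29 to 129, 152 and 182 CPM (5.26 ± 0.34, adjusted p = 7.04e-09).

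The gamma delta list fell on balance, with 7 of 14 lower, 4 higher and a median of -1.07. The delta constant gene Trdc had 139, 53.4 and 171 against 302, 475 and 341 CPM (-1.62 ± 0.34, adjusted p = 0.00135), and Blk, a SRC family kinase, fell by 1.48 ± 0.24. Sox13, a factor of gamma delta cells, went against the list at 205, 193 and 198 against 31.8, 19 and 27.7 CPM (2.93 ± 0.19, adjusted p = 8.51e-09). Without wild-type replicate 2 only 1 member of the list remained called higher.

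Proliferation genes were higher in transgenic cells almost without exception. All 31 tested genes of the G2 and M phases rose, with a median log2 fold change of 1.88, and 27 of 29 S phase genes rose, with a median of 1.40. No member of either list was lower. Mki67, the proliferation marker, stood at 754, 1011 and 699 against 63.2, 333 and 222 CPM (2.00 ± 0.44, adjusted p = 0.00203). Cdk1, the mitotic kinase, stood at 52.7, 100.1 and 58.4 against 6.13, 18.1 and 19.8 CPM (2.26 ± 0.44). Rrm2, a ribonucleotide reductase subunit (2.49 ± 0.38), Cdc45, a replication helicase component (2.36 ± 0.30), and Mcm3, a subunit of the same helicase (1.69 ± 0.27), rose alike. Wild-type replicate 1 had the lowest wild-type level of most of these genes, and the difference in Mki67 was 1.58 without it (adjusted p = 0.0039). Without transgenic replicate 2 the G2 and M phase count was 23 of 31.

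Cell cycle inhibitors and D cyclins split. Of 19 tested, 8 rose and 3 fell. Cdkn2a, the locus of p16 and ARF, had 7.00, 7.70 and 7.82 CPM in transgenic libraries and 1 read in the wild-type ones, a ratio of 200 (interval 35.5 to 7934). Cdkn2c, encoding p18, rose by 1.41 ± 0.33. Ccnd3, the D cyclin used after beta selection, stood at 304, 340 and 337 against 111, 106 and 151 CPM (1.41 ± 0.19, adjusted p = 2.39e-05), and Ccnd2 fell from 389, 292 and 382 to 127, 131 and 161 CPM (-1.34 ± 0.23). Of 19 targets of p53, 5 rose (3 without wild-type replicate 3) and 2 fell (1 without wild-type replicate 1), so most of the list did not follow Cdkn1a.

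Growth and metabolic lists differed in their counts. Of 24 MYC targets and ribosome biogenesis genes 8 rose and none fell (median 0.40), 5 to 6 when any 1 library was left out, the fewest without transgenic replicate 1, and Myc itself did not pass the test (260, 314 and 233 against 361, 230 and 320 CPM, -0.17 ± 0.21, adjusted p = 0.571). In glycolysis 7 of 21 genes rose and 2 fell, led by Pfkp, a phosphofructokinase (94.0, 88.6 and 81.8 against 19.3, 21.1 and 19.9 CPM, 2.13 ± 0.18, adjusted p = 1.01e-07), and Ldha, lactate dehydrogenase (1.31 ± 0.21). Without wild-type replicate 3 the number of glycolytic genes called higher was 11. Of 22 genes of cholesterol synthesis 4 fell and none rose (median -0.18), beside 15.7% lower and 14.9% higher among all tested genes. Without wild-type replicate 2 the count of lower cholesterol genes was 2. Among 85 cytosolic ribosomal protein genes 2 rose and 1 fell (median -0.10). When 1 library was left out 1 to 3 rose and 0 to 3 fell, with 3 higher and 3 lower without wild-type replicate 3, 3 lower without transgenic replicate 2, 1 higher without wild-type replicate 1 or 2 or transgenic replicate 2 or 3, and none lower without wild-type replicate 1 or 2 or transgenic replicate 3. None of 15 mitochondrially encoded genes was called (median -0.61), but 3 were lower without wild-type replicate 3 and 1 without wild-type replicate 1 or transgenic replicate 3.

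Chaperone genes rose in part. Of 13 heat shock genes 8 rose and none fell (median 0.96). Hspa8, the constitutive HSP70, stood at 783, 745 and 736 against 228, 358 and 407 CPM (1.19 ± 0.20, adjusted p = 0.00018). Without wild-type replicate 1 the count was 5. The inducible Hspa1a had 49.2, 293 and 96.2 against 1.23, 172 and 56.4 CPM (0.93 ± 1.22, adjusted p = 0.599), with large spread inside both groups. Of 19 early response genes 2 fell (none without transgenic replicate 2) and none rose (3 without wild-type replicate 2), and Fos ran from 5.52 to 154 CPM among wild-type libraries (0.17 ± 0.95, adjusted p = 0.913). In the unfolded protein and integrated stress response 6 of 18 rose and 1 fell (2 at most when a library was left out), including Psat1, a serine synthesis enzyme (1.37 ± 0.25), and Xbp1 (-1.14 ± 0.15).

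Classical class I genes were lower and the wider antigen presentation list was mixed. H2-K1, a classical class I molecule, had 356, 216 and 198 against 822, 632 and 645 CPM (-1.45 ± 0.23, adjusted p = 0.000142), and H2-D1 had 210, 161 and 142 against 376, 273 and 363 CPM (-0.98 ± 0.16). Over 22 class I and antigen processing genes 9 fell and 3 rose (median -0.28). The 3 that rose were H2-Q2, H2-T3 and H2-T24, nonclassical genes whose near-identical copies make the assignment of reads uncertain, and without wild-type replicate 2 the count was 1. In the list of dendritic cell and class II genes 8 of 11 fell and none rose (median -2.31), at low levels in both groups. H2-DMa, a class II peptide loading chain, fell from 35.1, 29.1 and 42.0 to 3.65, 1.79 and 2.22 CPM (-3.79 ± 0.28, adjusted p = 3.88e-08). Of 26 interferon response genes 9 fell and 1 rose (median -0.27), and 5 fell without transgenic replicate 3. Ifih1, the MDA5 sensor, fell from 52.5, 72.2 and 56.9 to 26.7, 13.2 and 19.8 CPM (-1.61 ± 0.24).

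**Figure D2:**
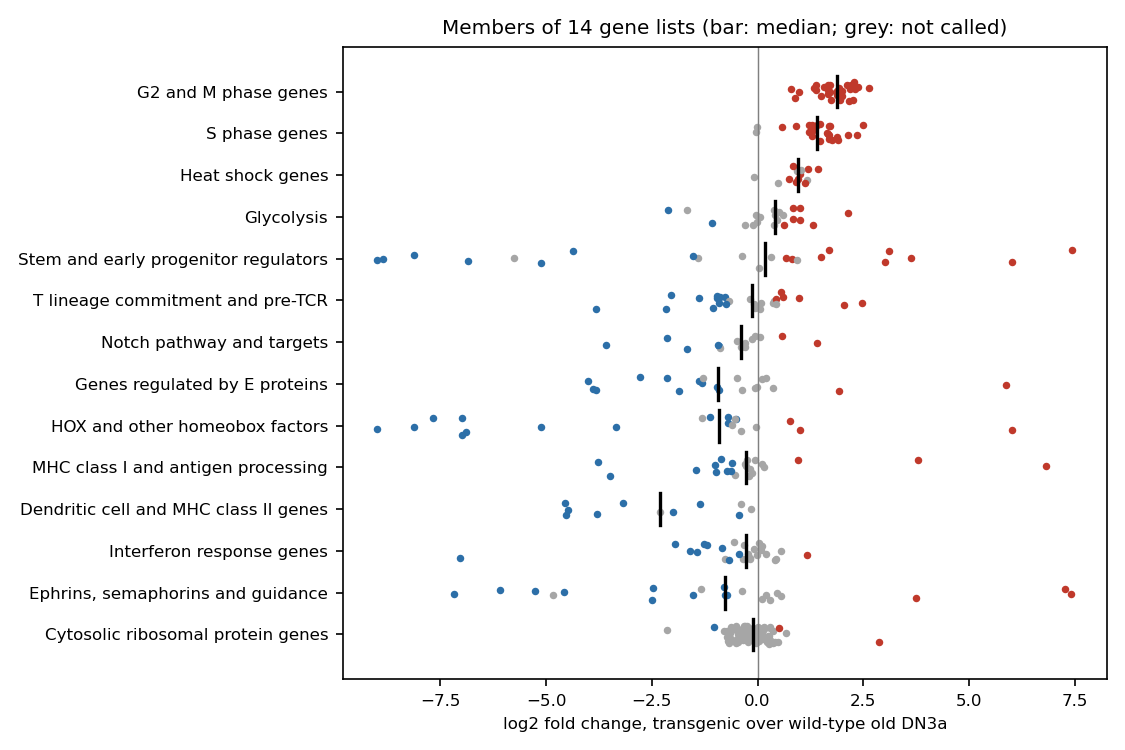
Log2 fold change, transgenic over wild-type old DN3a, of the tested members of 14 gene lists, 1 point per gene, with red for called higher, blue for called lower, grey for not called and a black bar at the list's median. The G2 and M phase and S phase lists lie right of 0 with medians of 1.88 and 1.40, and the dendritic cell and class II list has the lowest median, -2.31.

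Signalling lists held members in both directions. Of 31 cytokine receptors and signal regulators 8 rose and 8 fell (median 0.05). Il12rb2, an interleukin 12 receptor chain, stood at 171, 114 and 167 against 17.1, 23 and 29.2 CPM (2.70 ± 0.27, adjusted p = 8.73e-07), and the signal transducer Stat5a stood at 569, 648 and 641 against 276, 221 and 290 CPM (1.24 ± 0.15). The STAT5-induced inhibitors Cish (-2.37 ± 0.36) and Socs3 (-1.85 ± 0.36) fell. Il7r, the receptor for the main cytokine of these stages, had 184, 227 and 296 against 182, 250 and 180 CPM (0.21 ± 0.17, adjusted p = 0.382).

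In RAS and MAPK feedback 6 of 20 genes rose and 2 fell (1 without wild-type replicate 3), beside 14.9% and 15.7% of all tested genes. Spry2, an inhibitor of receptor signalling, had 176 reads in wild-type libraries and 1 in transgenic ones, a ratio of 203 (interval 36.0 to 8074). Rasgrp1, the exchange factor used downstream of the T cell receptor, stood at 404, 266 and 402 against 145, 171 and 157 CPM (1.18 ± 0.20, adjusted p = 0.000238). Of 23 TGF-beta and BMP genes 6 rose and 5 fell (3 without transgenic replicate 2), among them the co-receptor Eng (2.17, 3.67 and 5.39 against 51.5, 39.8 and 50.2 CPM, -3.66 ± 0.29) and the ligand Tgfb1 (1.33 ± 0.21). Of 20 Wnt genes 5 rose and 4 fell: Axin2, a feedback target, stood at 35.5, 45.1 and 37.4 against 11.8, 9.54 and 8.06 CPM (2.01 ± 0.21, adjusted p = 1.68e-06), and Tcf7l2 fell from 15.9, 27.2 and 16 to 1.97, 1.43 and 2.22 CPM (-3.40 ± 0.36).

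Surface genes gave some of the clearest switches. P2rx7, the ATP-gated channel of T cells, stood at 129, 82.4 and 103 against 0.245, 1.17 and 0.662 CPM (7.18 ± 0.34, adjusted p = 5.46e-10). Of the 16 purinergic genes 7 rose and 4 fell, and 3 rose without wild-type replicate 1. Mdga1, a glycolipid-anchored adhesion protein, rose from 1.23, 2.01 and 2.54 to 328, 278 and 302 CPM (7.27 ± 0.45, adjusted p = 3.83e-09), yet the list of ephrins, semaphorins and guidance genes fell on balance, with 10 of 21 lower, 3 higher and a median of -0.77. Epha2, an ephrin receptor, fell by 5.26 ± 0.78. Sodium channel beta subunits were among the lower channel genes, with Scn4b at 9.95, 6.00 and 12.3 against 411, 171 and 233 CPM (-4.86 ± 0.39, adjusted p = 7.78e-08) and Scn2b at -4.73 ± 0.45. Of 24 chemokine receptor and integrin genes 6 rose and 5 fell, with 3 called higher without wild-type replicate 1 and 3 called lower without transgenic replicate 2. Itgb2 and Itgb3, integrin beta chains, rose by 2.04 ± 0.17 and 2.31 ± 0.24.

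Chromatin and nuclear receptor genes changed in both directions. Of 30 chromatin modifiers 9 rose and 7 fell (median 0.21). Tet2, a DNA demethylase, fell from 61.0, 87.6 and 59.6 to 11, 2.77 and 3.70 CPM (-3.57 ± 0.41, adjusted p = 4.26e-06). Dnmt1, the maintenance methyltransferase (1.14 ± 0.20), and Ezh2, a Polycomb methyltransferase (0.89 ± 0.18), rose, and Smarca4, a remodelling ATPase, fell by 1.33 ± 0.19. Of 32 nuclear receptor, IRF, STAT and NFKB genes 8 rose and 6 fell, with Rxra, a retinoid receptor, at 33.3, 27.5 and 29.1 against 3.80, 2.54 and 6.95 CPM (2.75 ± 0.34) and Nfkb2 at -1.67 ± 0.21. Of 30 genes altered in T cell leukaemia of patients 10 rose and 4 fell (median 0.08), a list that overlaps those above.

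Markers of other cell types were examined beside these lists. Summed over 10 markers of the DN3a stage, transgenic libraries had 5060 to 5930 CPM and wild-type libraries 8530 to 12300, with 8 of the 10 markers lower and none higher. The defining markers of DN3a cells were thus expressed in all 6 libraries, at a lower sum in transgenic ones. The exact permutation test over the 3 and 3 libraries gave p = 0.1 (two-sided), the smallest it can give, and 0.162 adjusted over 13 marker sums. The sum of 6 DN2 markers was 228 to 431 against 85.1 to 136, with Lyl1 and Kit higher and Bcl11a, Spi1 and Mef2c lower. Markers of double-positive cells summed to 317 to 386 against 257 to 322 (exact p = 0.2), of mature alpha beta cells to 888 to 1490 against 480 to 761, and of gamma delta cells to 451 to 787 against 880 to 1110.

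Some markers of several other cell types were at 0 in all 6 libraries, while other markers of the same types had reads. At 0 were Klrd1 and Ncr1 of natural killer cells, S100a8 of myeloid cells, Pax5 and Ms4a1 of B cells, Siglech of plasmacytoid dendritic cells, Pf4 and Ppbp of megakaryocytes, and Ms4a2 and Fcer1a of mast cells. Cpa3, a mast cell protease, still rose from 11.3, 38.4 and 61.9 to 654.5, 790 and 1193 CPM (4.56 ± 0.68, adjusted p = 6.93e-05). Myeloid markers summed to 10.7 to 18.7 against 35.7 to 47.5 CPM, with Lyz2, lysozyme, falling from 21.7, 27.9 and 32.7 to 0.394, 0.895 and 2.01 CPM (-4.64 ± 0.38). Dendritic cell markers summed to 7.29 to 9.04 against 11.9 to 15.9. Natural killer and innate lymphoid markers summed to 29.4 to 72.8 against 51.3 to 74.5, most of it Nkg7 (28.7 to 72.6 against 49.3 to 73.8 CPM). Stroma markers summed to 196 to 234 against 225 to 233, with 1 called higher and 1 lower. Cd68 of myeloid cells (7.08 to 15.2 CPM) and Irf8 of dendritic cells (4.44 to 7.43 CPM) were present in all 6 libraries. B cell markers reached at most 1.27 CPM and erythroid markers 0.736 CPM in any library. The part of other cells in any gene's difference was not tested.

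The same genotype contrast in DN3a cells of younger mice (3 and 3 libraries, 2.5 to 3 weeks old, both sexes) called 1331 genes, 9.83% of those tested (4.69% higher and 5.14% lower). Of these, 1022 (76.8% of the young calls and 24.7% of the old ones) were called in the same direction at both ages, 510 higher and 512 lower, and 7 were called in opposite directions. In 3659 of the 4145 old calls (88.3%) the young estimate had the same sign. A gene called at one age and not the other is not thereby shown to differ, so the difference itself was tested. The difference between the old and the young genotype effect was called for 413 genes, 3.05% of those tested, 133 with the more positive effect in old cells (0.983%) and 280 with the more negative effect (2.07%). That count is not firm. It was 191 to 610 when 1 of the 12 DN3a libraries was left out, the lowest without young transgenic replicate 1 and the highest without old transgenic replicate 1. Adjusting for how many reads the unnamed 5868-base feature took left 109 genes. That feature took 0.306 to 4.37% of the reads in young wild-type and 0.876 to 13.9% in young transgenic libraries.

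Several gene groups described above held genes whose effect differed. Hoxa5 had 5.59 ± 1.46 (SD, n = 3) CPM in young wild-type and 1.76 ± 0.485 in young transgenic libraries, a young effect of -1.68 against the total loss in old cells (difference -7.31 ± 1.04, adjusted p = 0.00111). H2-K1 had 409 ± 57.9 and 526 ± 101 CPM in young wild-type and transgenic libraries (0.36, adjusted p = 0.371), and the difference between ages was -1.81 ± 0.33 (adjusted p = 0.00487). Ptcra had 377 ± 118 and 122 ± 15.5 CPM in young cells, an effect of -1.63 against -3.82 in old cells (difference -2.19 ± 0.43, adjusted p = 0.00937), a call lost on adjustment for the unnamed feature. Of the 22 class I and antigen processing genes 5 had a more negative effect in old cells.

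Among genes with a more positive effect in old cells, Sox13 had 191 ± 44.8 against 108 ± 6.95 CPM in young cells, and its difference was 2.11 ± 0.26 (adjusted p = 0.000222). In Igf2bp3, chosen after its values were seen, the transgenic level was alike at both ages (121 ± 10.5 CPM young) while the wild-type level was 68.1 ± 12.2 CPM in young and under 10 CPM in old libraries. Its difference was 2.80 ± 0.24 (adjusted p = 4.68e-06). Of the cell cycle lists, 8 of 29 S phase genes and none of 31 G2 and M phase genes were called higher in young cells, with medians of 0.72 and 0.60, but the difference between ages was called only for Gtse1, a mitotic gene on chromosome 15, a call lost when any 1 of 7 libraries was left out. Old and young groups also differ in sex and in the mix of library letters. With sex as a covariate the difference between ages was called for 373 genes, 360 of them among the 413, and with library letter for 422, 377 of them among the 413.

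**Figure D3:**
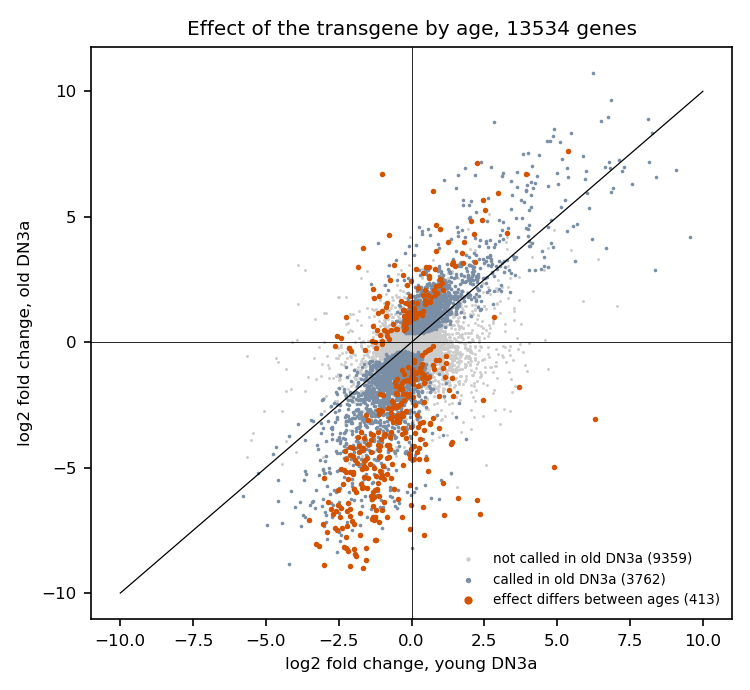
Genotype effect (transgenic over wild type, log2 fold change) in old DN3a cells on the vertical axis against that in young DN3a cells on the horizontal axis, 1 point per tested gene, with the 413 genes whose effect differed between ages in orange, other genes called in old cells in blue-grey and the rest in light grey. The black diagonal marks equal effects, and 88.3% of the 4145 genes called in old cells lie on the same side of 0 at both ages.

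Genes of chromosome 15 were shifted upward as a block in the old transgenic libraries, a pattern picked out after the values had been seen. For each library the log2 level of each gene was set against the mean of the wild-type libraries (for a wild-type library, the other ones) and centred on the library's own median, over 8104 genes above a mean log2 CPM of 4. The median of the 325 such genes on chromosome 15 was 0.31, 0.58 and 0.50 in the 3 transgenic libraries and 0.03, -0.09 and 0.04 in the wild-type ones. The groups did not overlap, and the means differed by 0.47 (0.46 ± 0.14 against -0.01 ± 0.07, SD, n = 3). The exact permutation test gave p = 0.1 (two-sided), the smallest possible with 3 and 3. The groups also did not overlap on chromosome 9, by a much smaller amount (-0.047 to -0.045 in transgenic and -0.023 to 0.019 in wild-type libraries). Over all chromosomes other than 15, medians in transgenic libraries lay between -0.18 and 0.07, and mean differences between -0.09 and 0.04. On this scale a 1.5-fold increase is 0.585.

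The shift ran along the whole chromosome. Cut into 5 successive stretches of 65 genes, the medians were 0.403, 0.211, 0.269, 0.345 and 0.219 in transgenic replicate 1, 0.62, 0.58, 0.64, 0.62 and 0.50 in replicate 2, and 0.76, 0.45, 0.46, 0.50 and 0.46 in replicate 3. Wild-type stretches lay between -0.29 and 0.20. Of 507 tested genes on chromosome 15, 199 were called higher and 33 lower (39.3% and 6.51%), against 14.3% and 16.2% elsewhere. Outside chromosome 15 there were 3913 calls. Chromosome 15 held 3.75% of tested genes, 9.84% of the genes called higher and 29.3% of those with a more positive effect in old than in young cells. In young transgenic libraries the chromosome's median was 0.03 ± 0.06 (SD, n = 3), and 24 of its genes were called higher and 39 lower. Of the genes named above, Nfe2, Itgb7, Gtse1, Myc and Il7r lie on this chromosome. DNA copy number was not tested.

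**Figure D4:**
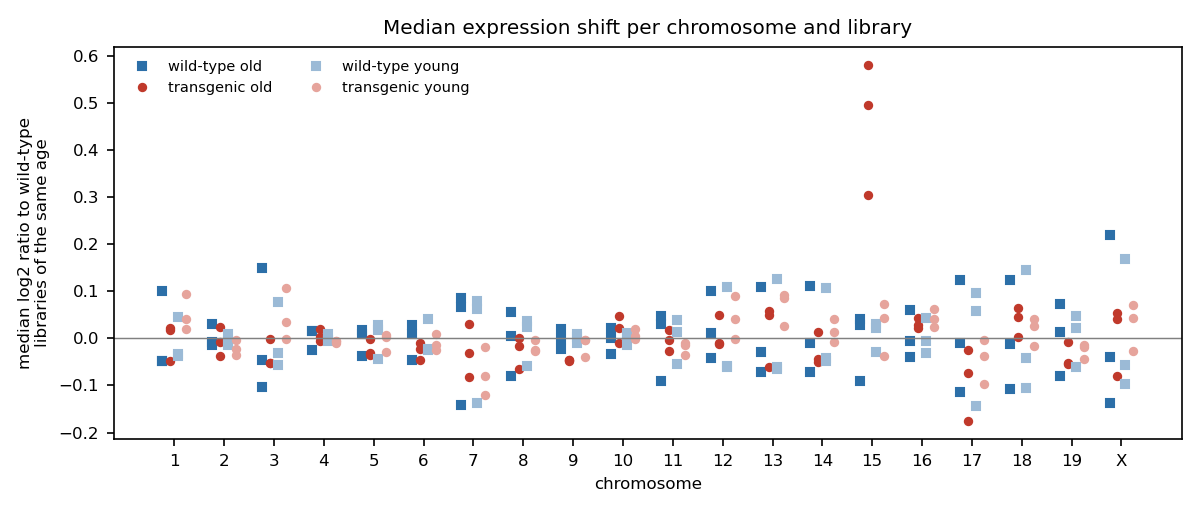
Median log2 ratio of the genes of each chromosome to the wild-type libraries of the same age, 1 point per DN3a library, with circles for transgenic and squares for wild type and pale colours for young mice. Chromosome 15 stands at 0.31 to 0.58 in the 3 old transgenic libraries, and their other chromosomes lie between -0.18 and 0.07.

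T cell receptor beta transcripts were also examined, likewise after the values had been seen. Reads on 24 Trbv segments summed to 7237, 7559 and 9434 in transgenic libraries and 1966, 1524 and 1942 in wild-type ones. Segments with near-identical copies can share reads, which makes single shares uncertain. In all 3 wild-type libraries Trbv13-2 led, with 37.0, 49.2 and 48.6% of V segment reads, and so it did in the 3 young wild-type libraries (38.3, 38.5 and 51.1%). In the transgenic libraries a different segment led each time. Trbv19 led in replicate 1 with 32.9% (exact 95% interval 31.8 to 34.0), Trbv4 in replicate 2 with 55.2% (54.1 to 56.3) and Trbv5 in replicate 3 with 44.1% (43.1 to 45.1). These intervals cover counting error only.

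The evenness of V segment use was not shown to differ, while J segment use was separated between the groups. The effective number of Trbv segments was 4.05 ± 1.22 in transgenic and 4.41 ± 1.29 in wild-type libraries (SD, n = 3, exact permutation p = 0.7), and the share of the leading segment was 44.1 ± 11.2% against 44.9 ± 6.88% (exact p = 1). The effective number of Trbj segments was 7.16, 4.62 and 6.39 in transgenic and 11.1, 8.42 and 8.83 in wild-type libraries. Every transgenic library lay below every wild-type one (6.06 ± 1.30 against 9.45 ± 1.44, SD, n = 3, exact permutation p = 0.1, two-sided, the smallest possible). In young transgenic libraries the leading V segment took 23.8, 19.7 and 16.7% of V segment reads. Replicate 2 of the old transgenic group had reads on 14 of 24 V segments and 7 of 13 J segments. Only 2 of its 1426 J segment reads (0.14%) came from the J1 cluster, against 31.8 and 48.0% in the other transgenic libraries and 60.5 to 65.0% in wild-type ones. The constant gene Trbc1, which follows the J1 cluster, had 208, 45.0 and 446 CPM in transgenic libraries and 348, 468 and 427 CPM in wild-type ones (-0.83, adjusted p = 0.215).

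**Figure D5:**
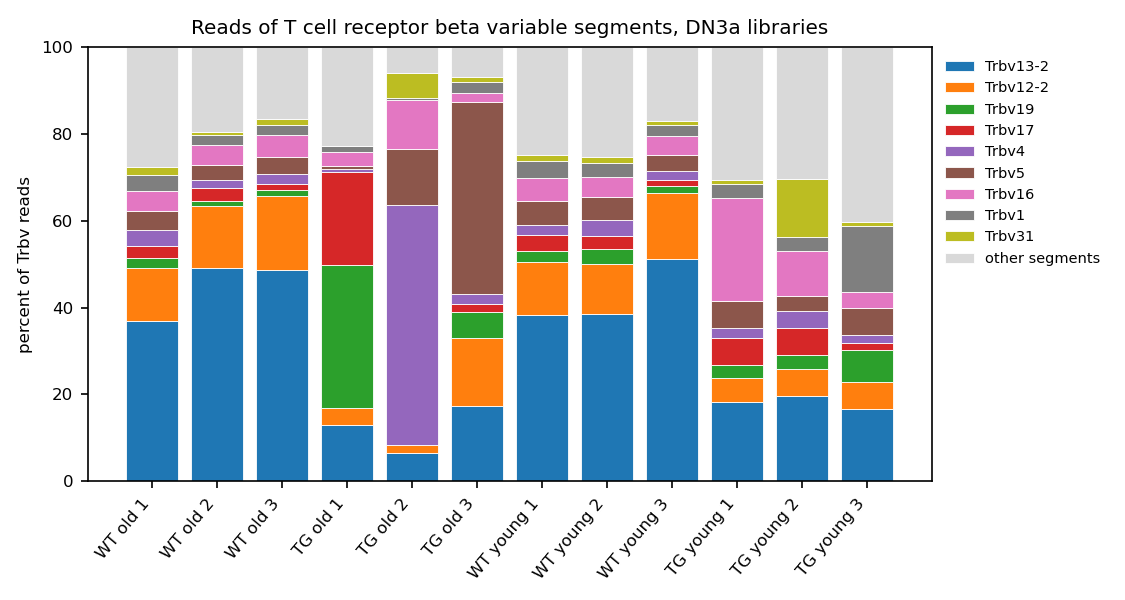
Share of Trbv reads by segment in percent, 1 stacked bar for each of the 12 old and young DN3a libraries (WT wild type, TG transgenic), with 9 segments in colour and the others in grey. Trbv13-2 takes the largest part of every wild-type bar, and Trbv19, Trbv4 and Trbv5 that of old transgenic replicates 1, 2 and 3.

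Library letter and age were recorded and varied within the old groups. With letter b libraries only (2 and 2), 2857 genes were called, and with 10-week-old mice only (2 transgenic and 1 wild type) 3172 were. In letter a there was 1 library per group, and 1219 genes were called. Where a group had a single library it was assumed to vary like the other groups. None of these subsets matched the groups in both letter and age. The 10-week-old transgenic libraries were letter b and the 10-week-old wild-type library was letter a. In letter b the transgenic mice were 10 and the wild-type mice 8 weeks old, and in letter a 6 and 10 weeks. The effects of letter and age therefore cannot be told apart here.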

How the data were processed

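RNA was extracted with a column kit, made into TruSeq libraries and read as single-end 100-base reads, per the labels' protocols. The deposited values are raw read counts per gene, and the submitters' processing notes name featureCounts and the mm10 build. No aligner, annotation or strand setting is stated in what was read. Of 27179 features 25275 were named from RefSeq, 18 from GENCODE and 1886 not at all.

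Counts were fitted with edgeR 4.0.16 in R 4.3.3 (quasi-likelihood, TMM, filterByExpr with a minimum count of 10 and total of 15) over 17 libraries in 6 groups, which leaves 11 residual degrees of freedom, with Benjamini-Hochberg adjustment at 0.05. The young mice, except that of wild-type DN3a replicate 3, each gave both a DN2 and a DN3a library. The fit had no term for mouse and took these libraries as independent in its spread and residual degrees of freedom. Levels are CPM on TMM-adjusted library sizes. DESeq2 1.42.0, limma 3.58.1, other filters, covariates and left-out libraries were alternatives. A gene without a read in a group was set against 3 reads over the group. Intervals cover counting error only.

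Named genes are Lmo2, the 12 largest called changes in each direction (5 CPM or more in the higher group, no overlap, no predicted genes or receptor segments), the 6 largest differences between ages in each direction and, of each of 45 lists, up to 6 called members by size and the first 3 tested. Others are said to be chosen after their values were seen. The members and lists were chosen with earlier results of these data known. The fit was tested on simulated data. Some named genes are not reported here.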

Additional observations from a re-analysis of the deposited data

Results flagged for a closer look

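For 55 of the 314 named genes the genotype effect in old DN3a cells differed from that in young DN3a cells by the test of the difference itself (edgeR's quasi-likelihood test, adjusted p under 0.05 over all tested genes). Each value is the old effect minus the young effect on the log2 scale. Where a group held no reads the size depends on the prior count. Values are given for 52 of the 55.

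The effect was more negative in old cells for 40 genes. Wide differences were those of Hoxa5 -7.31, Tceal8 -7.11, Pdgfa -6.94, Tmtc2 -6.79, Prr33 -6.64, Gab1 -6.64, Arhgap32 -6.59, Scel -6.15 and Spry2 -6.05. Next came Krt87 -5.88, Fam163b -5.84, Ifi44 -5.80, Fzd6 -5.70, Grk3 -5.52, Hoxa7 -4.95, Atoh8 -4.75, Bcl11a -4.14, H2-Q7 -3.92 and Tnfrsf10b -3.90. Differences of intermediate size were Tcf7l2 -3.61, Efnb1 -3.47, Scn4b -3.44, Ctla4 -3.32, Scn2b -3.10, P2ry14 -3.07, Tet2 -2.86, H2-DMb1 -2.55, 5830411N06Rik -2.40 and Lyz2 -2.40. Smaller ones were Eng -2.26, Ptcra -2.19, Trdc -2.05, H2-DMa -1.97, Dtx4 -1.83, H2-K1 -1.81, H2-D1 -1.32, Cd1d1 -1.30 and Orai2 -1.18.

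The effect was more positive in old cells for 15 genes, with Chordc1 0.90, Nr3c1 0.94, Hspa8 1.25, Nfe2 1.73, Gtse1 2.02, Sox13 2.11, Atp8a2 2.25 and Wnt5b 2.77 at the lower end and Pou2af1 2.78, Acox2 4.92, Fzd10 5.04, Adamts9 5.28, Ephb4 5.40 and Aif1l 7.73 at the upper end. Of these 55 differences 22 were called in every alternative run, among them Hoxa5, H2-K1, H2-D1 and Sox13, and 32 were called without each single library. On adjustment for the reads of the unnamed feature 30 were no longer called. Over all genes, 360 of the 413 differences were still called with sex as a covariate and 377 with library letter.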

How the results depend on the processing

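The count of 4145 genes in old cells was 4504 with DESeq2, 4447 with limma voom, 4145 with RLE size factors, 4036 without the low count filter, 3570 in a fit of the 6 old libraries, 4505 with library letter and 3312 with age in weeks as a covariate, 3521 on adjustment for the reads of the unnamed feature and 4150 without that feature and the mitochondrial genes. These runs did not all take the same genes. The main fit tested 13534, while DESeq2 and the run without the low count filter started from 18760. The fit with age as a covariate used the 6 old libraries only, and both fits of those libraries tested 12211. Leaving out 1 of the 6 libraries gave 3075 to 3938 calls, 1473 to 1900 higher and 1554 to 2038 lower. Letter b libraries alone gave 1310 higher genes. Letter a alone, 1 library against 1 with the spread of the other groups assumed and chosen after the data were seen, gave 1219 calls, 650 higher and 569 lower. The sign turned for Ephb4 in letter a (-0.22) and for Nr4a3 in letter a (0.48) and in mice of 10 weeks (0.42), and the cause was not tested.

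The count of 413 differences between ages was 728 with DESeq2 (258 and 470 in each direction), 642 with limma voom (216 and 426), 109 on the same adjustment (27 and 82), and 191 to 610 when 1 library was left out (47 to 199 more positive, 139 to 411 more negative). Other alternatives gave 362 to 518, and DESeq2 and the run without the low count filter again started from 18760 genes. The cause was not tested.

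The main fit used no pairing by replicate number. Same-numbered libraries deviated together at 0.171, -0.006 and 0.159, and differently numbered ones at -0.21 to 0.076. With so few libraries these values do not settle whether replicate numbers pair them. With a replicate block the counts were 3825 for old cells and 645 (256 more positive) for the difference between ages. Without the block the same libraries gave 3570 and 362. Of 252 called genes named by the rule 135 were called in every alternative, 204 without each single library, and 6 lost the call under the block.

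Reads were 0.0895 to 0.1227 CPM each, so genes near that level carry wide errors. In simulated data 8% of 1.5-fold, 42% of 2-fold and 92% of 4-fold changes were recovered. Only a small set of genes was changed there, none at the very lowest levels, and all others were equal in all groups. The real comparison called 30.6% of genes, so these rates do not give its recovery, which was not measured.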
